A study of Mus musculus with 4 samples.

Results

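The Pax genes described here were Pax1, Pax2, Pax3, Pax5, Pax6, Pax7, Pax8 and Pax9, 8 of the 19465 genes in the count tables, found there by their symbols. They were measured with Visium, which counts transcripts on an array of barcoded spots beneath a tissue section, so that a spot takes in a group of neighbouring cells, often of more than 1 type. The tissue was formalin-fixed, paraffin-embedded whole head of wild-type C57BL/6J mouse embryos at embryonic day 14.5 (E14.5) or 15.5 (E15.5), with no treatment or engineered allele named for either group, around the time at which the palatal shelves fuse. Each stage had 2 capture areas, 1 with a lone section (replicate 1) and 1 with 3 sections (replicates 2, 3 and 4), named A, B and C here because the labels do not tie a section to its replicate number. A capture area is 1 library, so the areas are the samples of the stage tests. Whether the 4 areas came from separate embryos is not stated in the labels. The p-values of the stage tests therefore measure the spread between these areas, which may be partly technical. The regional tests take a sum for each region from each area, so many of their samples share a library. Their p-values measure the spread of such sums around the fitted area and region levels, not a spread between independent embryos.

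Pax proteins are transcription factors that bind DNA through a paired domain, and they fall into subgroups by sequence. Pax1 and Pax9 lack a homeodomain and are known from the axial skeleton, the pharyngeal pouches, and, for Pax9, the palate and teeth. Pax3 and Pax7 have a full homeodomain and act in the dorsal neural tube, neural crest and muscle progenitors. Pax6 directs development of the eye, the cerebral cortex and the olfactory system. Pax2, Pax5 and Pax8 keep only part of a homeodomain. Pax2 and Pax5 are known from the border of midbrain and hindbrain, Pax2 also from the optic stalk, inner ear and kidney, Pax8 from the thyroid and kidney, and Pax5 from B cells.

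The E14.5 replicate 1 area had 1106 tissue spots and 15438992 unique molecular identifiers (UMIs, each counting 1 captured molecule), and its median spot had 6752. The E14.5 area of replicates 2 to 4 had 2310 spots, 109127953 UMIs and a median of 45058.5. The E15.5 replicate 1 area had 989 spots, 67344393 UMIs and a median of 64051, and the E15.5 area of replicates 2 to 4 had 1952 spots, 89128289 UMIs and a median of 45471.5. The first of these was therefore much the shallowest, and section A of the other E14.5 area was also shallow, whose median spot had 10037.5 UMIs against 65616 in section B and 59411 in section C. Levels are given in CPM, the usual count scale for depth, in which a gene's UMIs are divided by the total UMIs of the same spots and multiplied by 1e6. They are not scaled by transcript length, so they compare 1 gene between places or stages and not 1 gene with another. In such sums, fewer cells of a type and less RNA per cell cannot be told apart.

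Over all 6357 tissue spots, Pax9 was counted with 25159 UMIs, Pax6 with 24600, Pax3 with 4498, Pax1 with 3868, Pax7 with 2243, Pax2 with 1571, Pax8 with 413 and Pax5 with 59. Pax6 had a UMI in 3694 spots, Pax9 in 3123, Pax3 in 1768, Pax1 in 1728, Pax7 in 1270, Pax2 in 432, Pax8 in 143 and Pax5 in 52. Precision thus differed widely among the genes, and Pax5 and Pax8 rest on few molecules in most places.

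**Figure D1:**
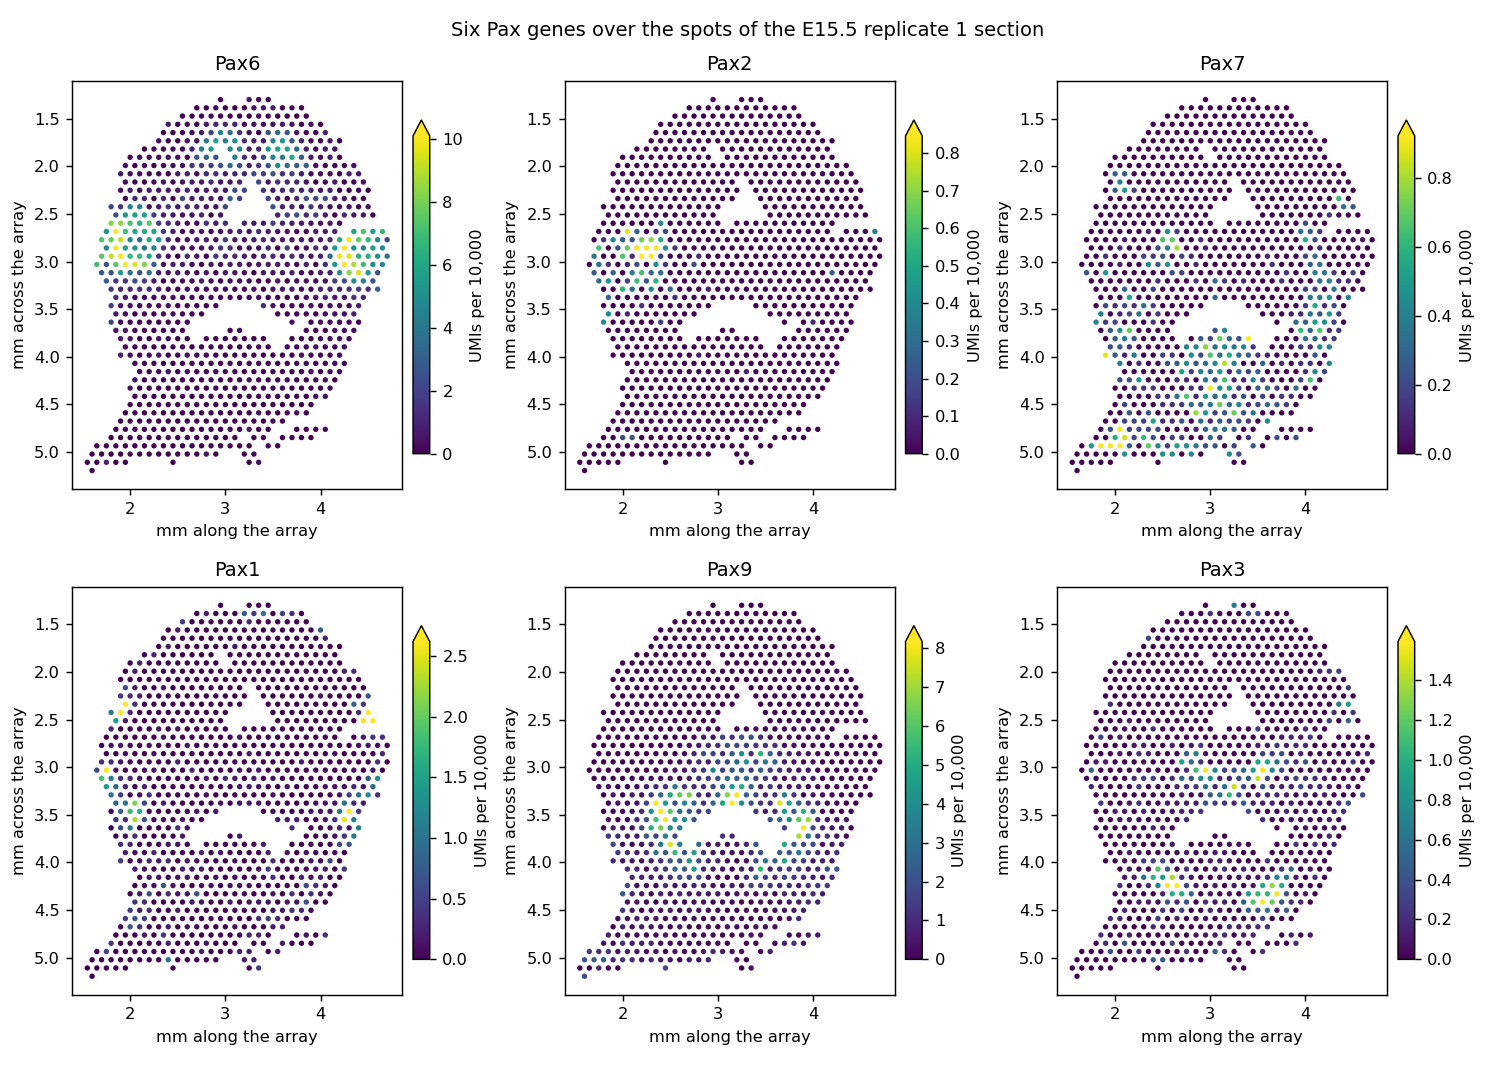
Each panel shows the spots of the E15.5 replicate 1 section at their position on the array (mm along and across it), coloured by the UMIs of 1 Pax gene per 10000 UMIs of the spot, with a colour scale of its own for each gene. Pax6 was high at both sides and Pax2 at 1 of them, Pax9 surrounded the central cavity, Pax7 was high below it, Pax1 was high along the outer edges and Pax3 in separate small groups of spots.

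To describe where the genes lay, spots were assigned to regions by 17 lists of marker genes that hold no Pax gene. A spot was given to the list with the highest standardised score above 1.5, and spots below that were left unassigned. The regions are called here by the genes that define them (retina-gene spots, tooth-gene spots and so on), since a spot mixes cell types. Several regions were not led by genes of their name alone. The leading genes of surface-epidermis-gene spots were Hoxc8, Hoxc6 and Hoxa9, with Hrnr and Sdr9c7, which are epidermal genes, lower in the order and no keratin among the first 10. Such Hox genes are known from the trunk and limbs rather than the skin of the head, and whether these spots are all head skin was not tested. Frontonasal-gene spots were led by Hand1, Npy2r and Tbx20 ahead of Alx1, and muscle-gene spots by Nkx2-5 and Hand1 ahead of Ckm, where Hand1, Tbx20 and Nkx2-5 are best known from the heart. Oral-palatal-gene spots had Myh1 and Mb, which are muscle genes, among their leading genes, and those of nerve-gene spots included Vip, Phox2a and Prph, genes of autonomic ganglia. Tbx22 was at 0 in the oral-palatal-gene spots of 3 of the 4 areas, and Rpe65 was at 0 in the pigment-gene spots of every area. Regional levels were tested with edgeR on the UMIs summed per area and region, each region against the mean of the others with the area as a term. A region with under 10 spots in an area had no sum there, so lens-gene spots entered from 3 areas and choroid-gene spots from 2. A gene was called higher at an adjusted p under 0.1 with a log2 fold change of at least 1. By this rule 31 pairs of a Pax gene and a region were called higher, in regions where 2.84% to 11.3% of the 14130 genes tested were called.

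**Figure D2:**
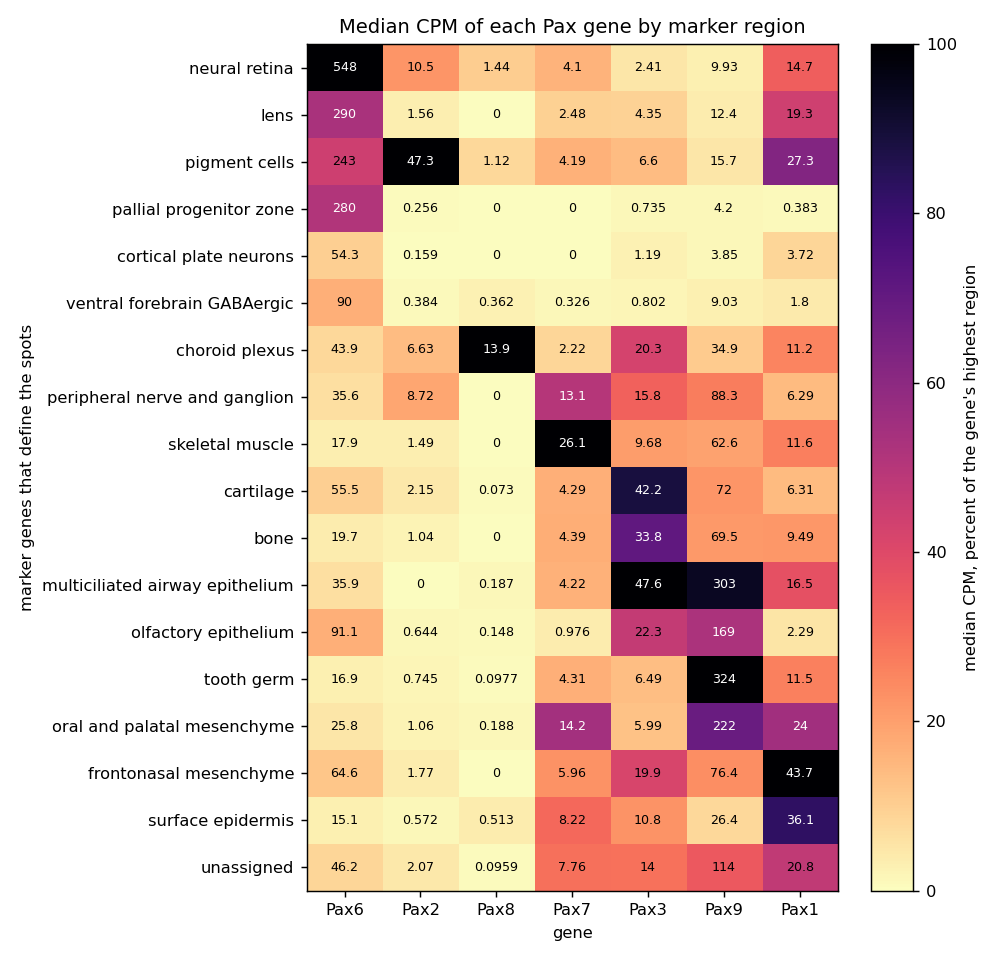
Each cell gives the median CPM, over the areas with at least 10 such spots, of 1 Pax gene (columns) in the spots of 1 marker region (rows), and its colour is that median in percent of the gene's highest region. Pax6 was highest in retina-gene spots (median 548 CPM), Pax9 in tooth-gene spots (324) and Pax7 in muscle-gene spots (26.1), and no 2 genes shared the same set of dark cells. Pax5 is not shown.

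Pax9 (ENSMUSG00000001497, chr12:56691767-56712822, plus strand, GRCm38) was highest around the oral and nasal cavities and low in spots of cortical and ventral forebrain genes. In tooth-gene spots, defined by enamel-knot and dental epithelium genes such as Shh, Edar and Fgf4, Pax9 was at 273 CPM in E14.5 replicate 1, 472 in E14.5 replicates 2 to 4, 265 in E15.5 replicate 1 and 374 in E15.5 replicates 2 to 4. All 4 areas were thus far above the 0.500 to 5.41 CPM that Pax9 had in cortical-plate-gene spots. Its log2 fold change in tooth-gene spots was 3.17 (SE 0.216, adjusted p = 2.67e-18, edgeR), where 5.46% of all 14130 genes tested were called higher.

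Pax9 was also high in spots of oral, palatal and nasal genes. In oral-palatal-gene spots, defined by Osr2, Shox2, Barx1, Meox2 and Tbx22, Pax9 was at 204, 354, 195 and 239 CPM in the 4 areas in the same order. Its log2 fold change there was 2.73 (SE 0.223, adjusted p = 1.61e-14, edgeR; 5.61% of genes called). These spots held 13.2% to 18.4% of all Pax9 UMIs and 4.16% to 7.10% of all UMIs.

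In airway-gene spots, defined by multiciliated cell genes such as Foxj1 and Rsph1, Pax9 was at 115, 359, 319 and 287 CPM, lowest in E14.5 replicate 1, where only 12 UMIs stood behind the value. The log2 fold change was 2.89 (SE 0.241, adjusted p = 4.29e-15, edgeR; 7.27% of genes called). In olfactory-gene spots, defined by Omp, Gng8 and other sensory neuron genes, Pax9 ranged from 141 to 195 CPM over the areas, with a log2 fold change of 2.11 (SE 0.242, adjusted p = 1.54e-10, edgeR; 7.54% called). Nerve-gene spots gave the smallest of its 5 calls, 1.34 (SE 0.288, adjusted p = 0.000392, edgeR; 4.64% called), and with regions scored by shares of UMIs it fell to 0.87 and was not called.

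Epithelial genes were high in several of these places. The summed CPM of Epcam, Cdh1, Krt5, Krt14 and Krt15 had a median over the areas of 3128 in tooth-gene spots, 1403 in airway-gene spots, 1391 in oral-palatal-gene spots and 97.3 in ventral-forebrain-gene spots. In surface-epidermis-gene spots Pax9 was not called higher (log2 fold change -0.51, SE 0.337). How much of the Pax9 signal was epithelial or mesenchymal was not tested.

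Pax1 (ENSMUSG00000037034, chr2:147361925-147393295, plus strand), the paralog of Pax9, had a different distribution. In surface-epidermis-gene spots, defined by Krt1, Krt10 and other stratification genes but led by Hox genes as stated above, Pax1 was at 20.3, 50.5, 21.8 and 53.3 CPM, with both areas of replicates 2 to 4 above both replicate 1 areas. Against the other regions this was a log2 fold change of 2.15 (SE 0.282, adjusted p = 6.45e-09, edgeR; 9% of genes called). In frontonasal-gene spots, defined by genes such as Alx1, Alx4 and Prrx2, it was at 57.0, 15.9, 66.2 and 30.4 CPM, here with both replicate 1 areas above the others, and the log2 fold change was likewise 2.15 (SE 0.321, adjusted p = 1.27e-06, edgeR; 2.84% called).

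Pax1 was also called higher in pigment-gene spots (log2 fold change 1.71, adjusted p = 0.000117, edgeR; 3.53% of genes called), in oral-palatal-gene spots (1.296, adjusted p = 0.000732) and in lens-gene spots (1.17, adjusted p = 0.0387; 4.38% called). The lens call, on 3 areas, was lost without E15.5 replicate 1 (0.94), and the oral-palatal call at a marker score of 2 (0.95). The frontonasal value moved to 1.51 without E15.5 replicate 1. In cartilage-gene spots it was at only 1.40 to 10.1 CPM, and in bone-gene spots at 6.13 to 11.8 CPM. The genes whose levels over spots were most like that of Pax1 were Cxcl14 (mean Pearson r over the 8 sections 0.39), Cma1 (0.38), a mast cell protease, and Krt1 (0.35). Among the genes most like Pax9 was the epithelial gene Epcam (0.48). Such correlations are descriptions over spots that share a library and a depth. Among spots, Pax1 and Pax9 had a mean r of -0.05, above 0 in 1 of 8 sections.

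The windows around the starts of this paralogous pair are printed because the genes were highest in different regions. They run from 250 bases before to 50 bases after the RefSeq start on GRCm38.p6, 5′ to 3′ on the strand of the gene, and capitals mark matches on either strand to 4 motifs. These were the TATA box, spelled TATAAA, the box known by its letters CCAAT, the GC box, spelled GGGCGG, and the homeodomain core, spelled TAATTA. No match overlapped another. The Pax1 window lies at chr2:147364744-147365043 on the plus strand and the Pax9 window at chr12:56695221-56695520 on the plus strand. Both lie inside the gene positions given above, which came from GENCODE and begin further upstream, and no window was printed at those upstream ends.
Pax1: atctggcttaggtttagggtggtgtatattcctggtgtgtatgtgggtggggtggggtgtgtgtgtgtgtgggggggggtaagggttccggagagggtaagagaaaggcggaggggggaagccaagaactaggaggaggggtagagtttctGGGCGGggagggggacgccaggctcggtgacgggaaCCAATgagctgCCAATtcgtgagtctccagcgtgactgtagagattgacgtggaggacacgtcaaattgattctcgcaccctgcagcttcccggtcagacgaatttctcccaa
Pax9: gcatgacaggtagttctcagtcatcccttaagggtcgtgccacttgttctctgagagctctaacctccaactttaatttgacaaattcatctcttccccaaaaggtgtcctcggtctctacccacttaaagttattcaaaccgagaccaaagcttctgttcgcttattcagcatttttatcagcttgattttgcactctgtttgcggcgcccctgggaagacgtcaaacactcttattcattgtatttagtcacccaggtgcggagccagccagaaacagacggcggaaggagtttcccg
The Pax1 window had 57.3% G or C and held 2 CCAAT boxes and 1 GC box, and the Pax9 window had 47% G or C and held none. Of all 32851 such windows, 13.6% held the TATA box, 37.4% the CCAAT box, 35.7% the GC box and 5.29% the homeodomain core, and their median was 52.7% G or C. Windows were found for 7 of the 8 genes, 10 windows in all, and Pax3 had none in the table. The matches are a description of letters and say nothing of binding.

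Pax3 (ENSMUSG00000004872, chr1:78101267-78197134, minus strand) was highest in skeletal and airway places. In cartilage-gene spots, defined by Col2a1, Acan, Matn1 and other matrix genes, Pax3 was at 38.5, 38.6, 45.7 and 70.1 CPM in the 4 areas in the same order as above. The first value rested on 23 UMIs, and a stage difference within these spots was not tested. Cartilage-gene spots exceeded the other regions by a log2 fold change of 2.52 (SE 0.282, adjusted p = 1.78e-10, edgeR; 4.61% of genes called).

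In airway-gene spots Pax3 was at 48.1, 44.2, 47.1 and 61.7 CPM, the first on 5 UMIs in 21 spots. The log2 fold change there was 2.41 (SE 0.328, adjusted p = 2.71e-08, edgeR). In bone-gene spots, defined by Ibsp, Sp7, Alpl and other osteoblast genes, it was at 8.18, 30.6, 37.0 and 39.2 CPM, the first on 4 UMIs in 43 spots, with a log2 fold change of 2.001 (SE 0.278, adjusted p = 3.37e-08, edgeR; 5.06% called). Pax3 was also called higher in frontonasal-gene spots (1.497, adjusted p = 0.00105) and in olfactory-gene spots (1.24, adjusted p = 0.00280). The frontonasal call was lost without the E14.5 area of replicates 2 to 4 (0.92). In muscle-gene spots Pax3 was at 5.01 to 15.3 CPM and was not called.

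Over whole sections Pax3 was at 63.5 CPM in E14.5 section A and at 7.58, 6.52 and 13.3 in the other E14.5 sections, and at 10.4, 21.0, 21.1 and 29.6 at E15.5. The high value came from 1 shallow section with 586 Pax3 UMIs. Its largest patches of touching spots with at least 5 UMIs had 8 spots, 7 of them tooth-gene spots, with 56 UMIs, 7 spots, 4 of them cartilage-gene spots, with 50, and 5 spots, 3 of them frontonasal-gene spots, with 41, so that most of its Pax3 UMIs lay outside them. Over the 4 areas, Pax3 in tooth-gene spots was at 4.34, 42.9, 8.01 and 4.96 CPM, so that only the area of that section was high, and Pax3 was not called there.

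The most like genes of Pax3 over spots were Gsc (mean r 0.47, range 0.17 to 0.69), a homeobox gene of craniofacial mesenchyme, Comp (0.36), a cartilage matrix gene, and Snai1 (0.35). In the E15.5 replicate 1 section, touching spots with at least 5 Pax3 UMIs formed 4 patches of at least 3 spots, a rule chosen after the values had been seen. A patch of 12 spots, 10 of them bone-gene spots, held 91 of the 702 Pax3 UMIs of the section, with Mmp13, a collagenase of late bone and cartilage, at 285 CPM against 9.70 outside and Gsc at 171 against 33.3. A patch of 9 spots, 8 of them bone-gene spots, held 72 UMIs with Gsc at 196 against 33.4. The other patches, of 8 spots each with 4 cartilage-gene spots in each, held 73 and 58 UMIs, with Col9a1 at 2765 against 176 CPM in the first and Matn3 at 282 against 17.3 in the second.

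Pax7 (ENSMUSG00000028736, chr4:139737062-139833528, minus strand), which marks progenitors of skeletal muscle, was highest in muscle-gene spots, defined by Myh3, Acta1, Myog and other muscle genes. It was at 17.5, 20.6, 36.8 and 31.6 CPM there, on 7, 202, 316 and 420 UMIs. Pax7 exceeded the other regions there by a log2 fold change of 3.26 (SE 0.207, adjusted p = 3.28e-20, edgeR; 6.07% of genes called).

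Muscle-gene spots held 15.2%, 36.8%, 44.3% and 44.9% of the Pax7 UMIs of the areas and 2.58%, 8.98%, 12.8% and 14.9% of all UMIs. Pax7 was also called higher in oral-palatal-gene spots (log2 fold change 2.22, adjusted p = 5.77e-10, edgeR), whose leading genes include muscle genes as stated above. It was called higher in nerve-gene spots (1.90, adjusted p = 9.13e-06) and in surface-epidermis-gene spots (1.66, adjusted p = 1.25e-06), which were led by Hox genes. It was at 0 to 0.541 CPM in cortical-plate-gene spots, 0 to 0.845 in ventral-forebrain-gene spots and 0 to 2.05 in pallial-progenitor-gene spots. Its most like genes were Myl1, Myog and Atp2a1, all of muscle, each with a mean r of 0.46.

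Pax3 and Pax7 were little alike over spots, with a mean r of 0.02. Pax7 had a log2 ratio of 0.40 ± 0.280 (SD, n = 3 areas) between spots with and without a Pax3 UMI. After thinning it was 0.18, above 0 in 1 of 2 areas. In E14.5 replicate 1 the ratio was not computed, since only 3 Pax7 UMIs lay in the spots with Pax3.

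Pax6 (ENSMUSG00000027168, chr2:105668900-105697364, plus strand) was highest in places of the eye and the pallium. In retina-gene spots, defined by Rax, Six6, Atoh7 and other eye genes, it was at 685, 459, 609 and 488 CPM. Both replicate 1 areas were above both areas of replicates 2 to 4. Its log2 fold change was 3.36 (SE 0.146, adjusted p = 4.79e-27, edgeR; 4.98% of genes called), the largest for Pax6 among the regions tested.

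Retina-gene spots held 30.8%, 29.6%, 44.7% and 12.8% of the Pax6 UMIs of the areas and 6.30%, 6.04%, 8.61% and 1.27% of all UMIs. The share was lowest in E15.5 replicates 2 to 4, where only 30 of 1952 spots were retina-gene spots. Pax6 was also called higher in lens-gene spots, on 3 areas (log2 fold change 2.56, adjusted p = 1.91e-17, edgeR). It was called higher as well in pallial-progenitor-gene spots (2.40, adjusted p = 2.26e-18, edgeR; 9.38% called) and in pigment-gene spots (2.11, adjusted p = 5.54e-15, edgeR). In pallial-progenitor-gene spots, defined by Emx1, Emx2, Neurog2 and other progenitor genes, it was at 329, 231, 346 and 167 CPM.

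Cortical-plate-gene spots, which mark the neurons those progenitors make, had less Pax6, 59.8, 60.8, 48.8 and 34.5 CPM. Ventral-forebrain-gene spots had between 51.5 and 123 CPM, and olfactory-gene spots had 77.2, 122, 92.4 and 89.8 CPM. Neither place was called higher. The genes most like Pax6 over spots were Fgf15 (mean r 0.62, range 0.45 to 0.83), Rax (0.62) and Atoh7 (0.61), of which Rax and Atoh7 belong to the list that defined the retina-gene spots.

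**Figure D3:**
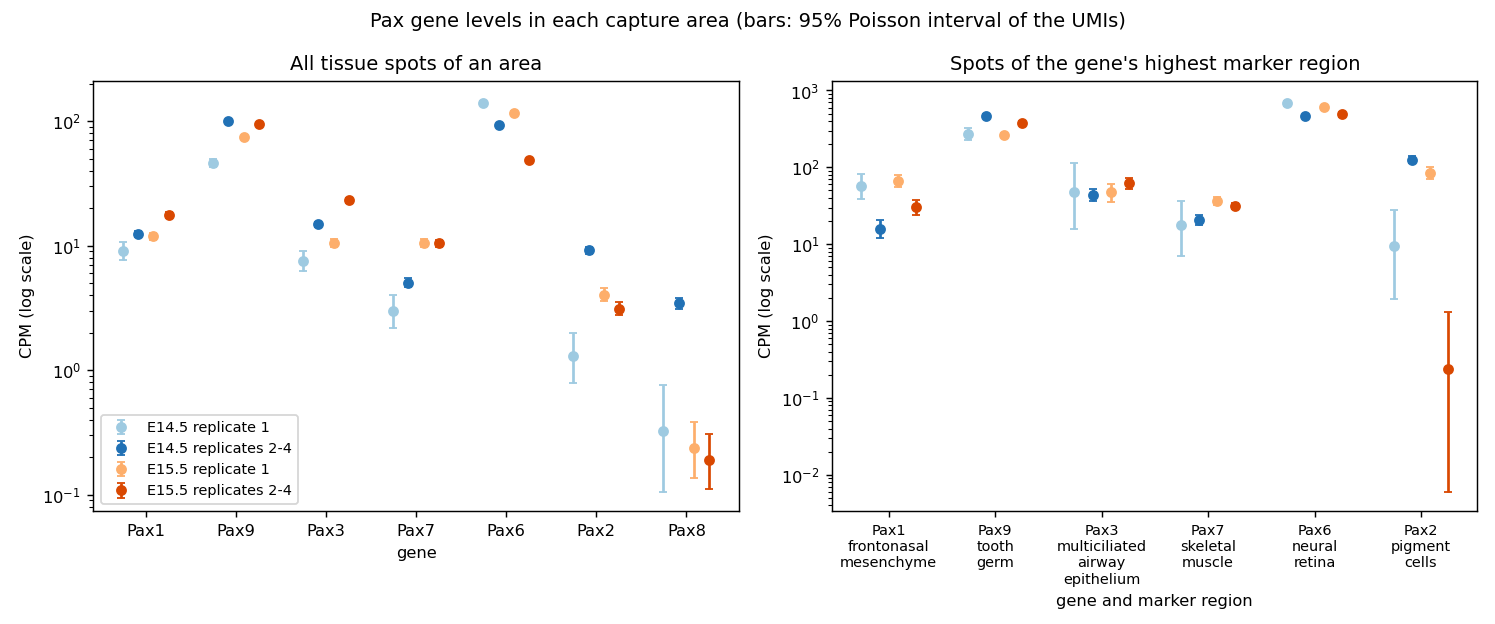
The points give the CPM (log scale) of the Pax genes in each of the 4 capture areas, over all tissue spots on the left and over the spots of the gene's highest tested region on the right, with exact 95% Poisson intervals that cover counting error only. On the left, Pax7 was at 10.6 and 10.5 CPM in the E15.5 areas and at 2.98 and 5.03 in the E14.5 areas, and on the right Pax2 in pigment-gene spots ranged from 0.237 to 126 CPM.

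Pax2 (ENSMUSG00000004231, chr19:44756045-44837871, plus strand) lay mostly in small groups of spots, and the groups differed between areas. In pigment-gene spots, defined by Pmel, Tyrp1, Dct and other melanin genes, it was at 9.52, 126, 85.0 and 0.237 CPM, on 3, 337, 134 and 1 UMIs, so that 2 of the 4 areas were high. For pigment-gene spots the log2 fold change was 4.75 (SE 0.440, adjusted p = 6.89e-13, edgeR). In retina-gene spots it was at 4.11, 29.1, 16.9 and 0 CPM, the last on 0 UMIs in 30 spots, whose exact 95% Poisson interval reaches 3.26 CPM. There the log2 fold change was 2.83 (SE 0.507, adjusted p = 1.36e-05, edgeR). The call in nerve-gene spots (1.74, adjusted p = 0.0934) was close to the threshold and was lost under 5 of 10 alternatives, 2 of them leaving out a replicate 1 area. Without E15.5 replicate 1 the pigment value was 3.89, and without the E14.5 area of replicates 2 to 4 the retina value was 3.85 and the nerve value 3.12.

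Touching spots with at least 5 Pax2 UMIs show the same pattern, by the rule given for Pax3. In E14.5 section C, 13 spots held 284 of the 437 Pax2 UMIs (65.0%), and 7 of them were pigment-gene spots. In E15.5 replicate 1, 10 spots held 176 of 271 (64.9%), 7 of them retina-gene spots, with Pax6 at 486 CPM against 111 outside. In E14.5 section B there were 3 such patches, of 16, 8 and 5 spots with 217, 98 and 60 UMIs.

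The patches of E15.5 section B were of another kind. They had 7 spots with 100 Pax2 UMIs and 6 spots with 101, of 268 in the section, and 5 spots in each were unassigned. Zic1, a zinc-finger transcription factor gene of the neural tube, was at 646 and 579 CPM in these patches against 31.6 and 33.8 outside. Fgf17 was at 63.1 and 74.5 CPM against 3.38 and 3.34, and Pax6 was at 30.5 and 24.8 against 20.2 and 20.3. No such patch was found in E14.5 replicate 1, E14.5 section A, E15.5 section A or E15.5 section C. The rule of 5 UMIs takes no account of depth, so shallow spots meet it less readily. Median spots had 6759 UMIs in the first of these sections and 10037.5 in the second, against 38795 and 43551 in the E15.5 ones. For the shallow sections, the lack of a patch therefore does not show that Pax2 was not grouped. Over all spots the genes most like Pax2 were Clec18a (mean r 0.24), the pigment gene Pmel (0.20) and Metrn (0.19).

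Pax8 (ENSMUSG00000026976, chr2:24420560-24475599, minus strand) lay mostly in 1 place, choroid-gene spots of a single area. In choroid-gene spots, defined by Ttr, Kcnj13, Folr1, Clic6 and Slc4a5, Pax8 was at 27.8 CPM on 315 UMIs in E14.5 replicates 2 to 4. The choroid-gene spots of E15.5 replicates 2 to 4 had 0 UMIs in 33 spots, for which the exact 95% interval reaches 2.68 CPM. These 33 spots were unlike those of E14.5 replicates 2 to 4 in other genes. Pax9 was at 61.7 CPM in them against 8.04, Pax3 at 38.5 against 2.03 and Pax1 at 21.1 against 1.41. Pax6 was at 5.81 against 81.9 CPM and Ttr at 7649 against 16187. The test, with choroid-gene sums from 2 areas, gave a log2 fold change of 5.55 (SE 0.368, adjusted p = 1.46e-17, edgeR; 6.82% of genes called). Without the E14.5 area of replicates 2 to 4 it was -2.10. The 4 other calls of Pax8, in retina-, pigment-, surface-epidermis- and ventral-forebrain-gene spots (11.3% called in the last), rested on at most 19 UMIs in any area, and none of them was called by DESeq2.

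In E14.5 section B, 13 touching spots with at least 5 Pax8 UMIs held 72.4% of the 323 Pax8 UMIs of the section, and all were choroid-gene spots. Fgf17, a growth factor of the midbrain-hindbrain border, was at 453 CPM there against 10.5 outside, Fgf8 at 148 against 5.16, and Ttr at 41544 against 2266. Pax2 was at 72.9 against 10.8 CPM, and Pax6 at 60.8 against 75.9. En1 was at 0.668 against 24.3 CPM. One Pax2 patch of the same section, of 8 spots, was also made of choroid-gene spots only, with Fgf17 at 541 CPM against 13.8 and Pax8 at 190 against 3.21. Pax8 in spots with a Pax2 UMI exceeded that in spots without by a mean log2 ratio of 4.47 ± 1.03 (SD, n = 2 areas), the only areas with enough UMIs, and in 1 of them it rested on 12 UMIs against 4. Over all sections the genes most like Pax8 were Ttr, the transthyretin gene of the choroid plexus (mean r 0.16), Fgf17 (0.14, range -0.03 to 0.77) and Fgf8 (0.14).

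**Figure D4:**
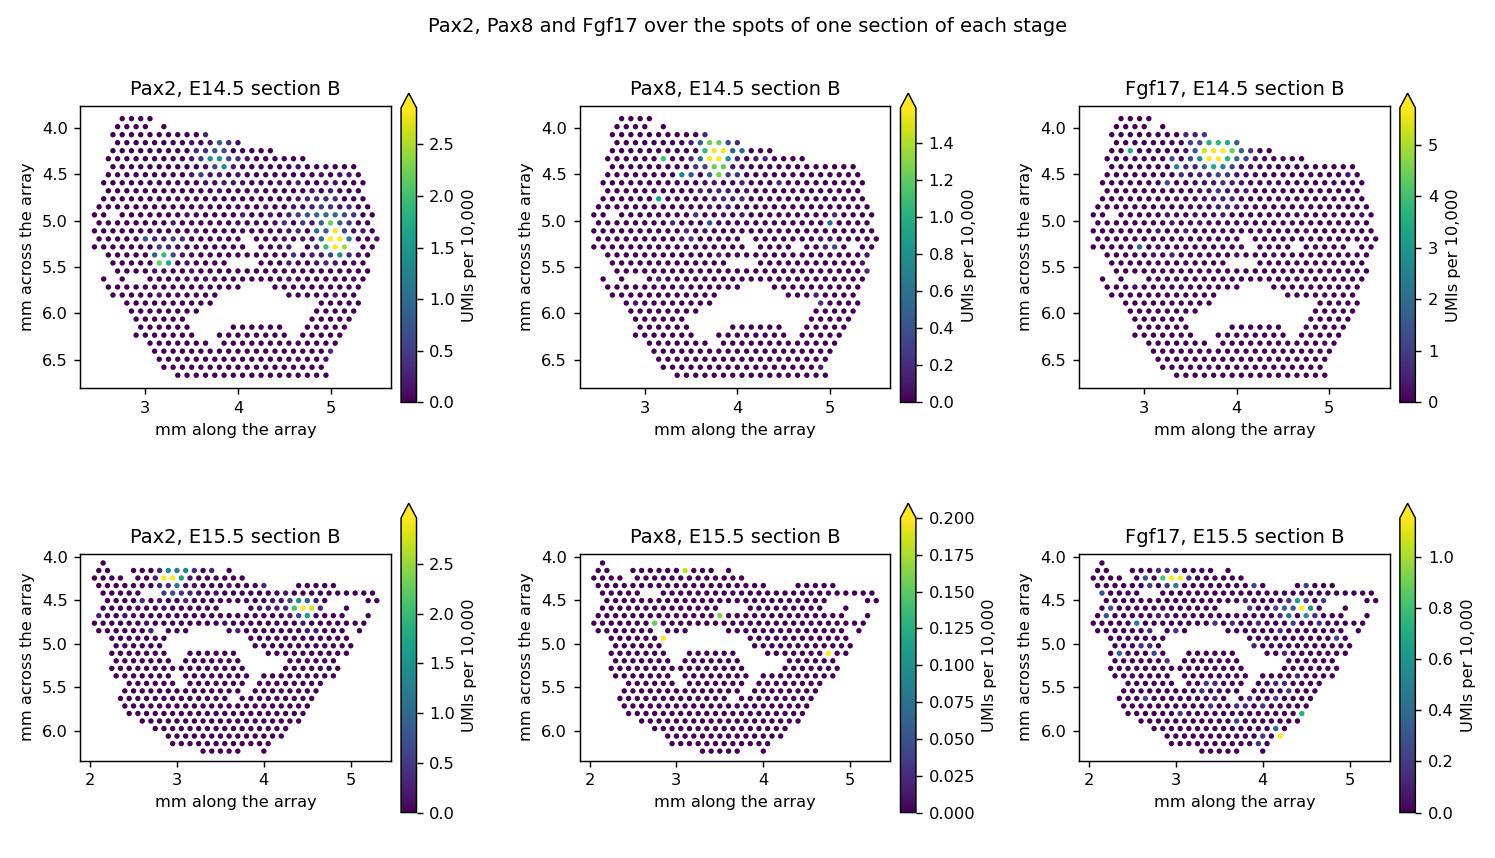
Each panel shows the spots of E14.5 section B (top) or E15.5 section B (bottom) at their position on the array (mm), coloured by the UMIs of Pax2, Pax8 or Fgf17 per 10000 UMIs of the spot, each panel with its own colour scale. In E14.5 section B, Pax8 and Fgf17 were high in the same group of spots, with a Pax2 patch among them, and in E15.5 section B, Pax2 and Fgf17 were high in the same 2 groups while Pax8 had single scattered spots.

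Pax5 (ENSMUSG00000014030, chr4:44524757-44710487, minus strand) was barely detected. It had 3, 26, 6 and 24 UMIs in the 4 areas, or 0.194, 0.238, 0.0891 and 0.269 CPM. Ventral-forebrain-gene spots had the highest median, at 0.384, 0.538, 0.268 and 0.684 CPM on 1, 7, 1 and 3 UMIs. Too few counts passed the filter for a regional test. Its likest genes, Vgf, Pbx4 and Prtn3, had mean r of 0.11, 0.10 and 0.10.

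Pairs of Pax genes were compared within spots. Pax9 was higher in spots with a Pax3 UMI than in those without in all 4 areas, at 76.4 against 41.7, 137 against 83.0, 103 against 59.0 and 113 against 80.3 CPM. The mean log2 ratio was 0.72 ± 0.169 (SD, n = 4 areas), and with spots thinned to 5000 UMIs it was 0.73. Spots under this depth, which were not thinned, numbered 484, 361, 5 and 12 in the 4 areas in the same order. The mean r over the sections was 0.22, above 0 in 7 of 8.

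Pax9 and Pax6 were apart. The mean r was -0.22, below 0 in all 8 sections, and Pax9 was at 30.2 against 85.2, 82.4 against 169, 71.2 against 82.8 and 82.8 against 110.5 CPM in spots with and without a Pax6 UMI. Pax2 by Pax6 had a log2 ratio of 2.46 ± 1.90 (SD, n = 4 areas), above 0 in 3 of 4. For Pax9 by Pax1 the ratio was -0.16 ± 0.802 (SD, n = 4 areas), with an SD larger than its size, and was above 0 in 3 of 4 areas. After thinning it was -0.61 ± 0.501, below 0 in 4 of 4. These ratios count a spot with a UMI, which deeper spots have more often.

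**Figure D5:**
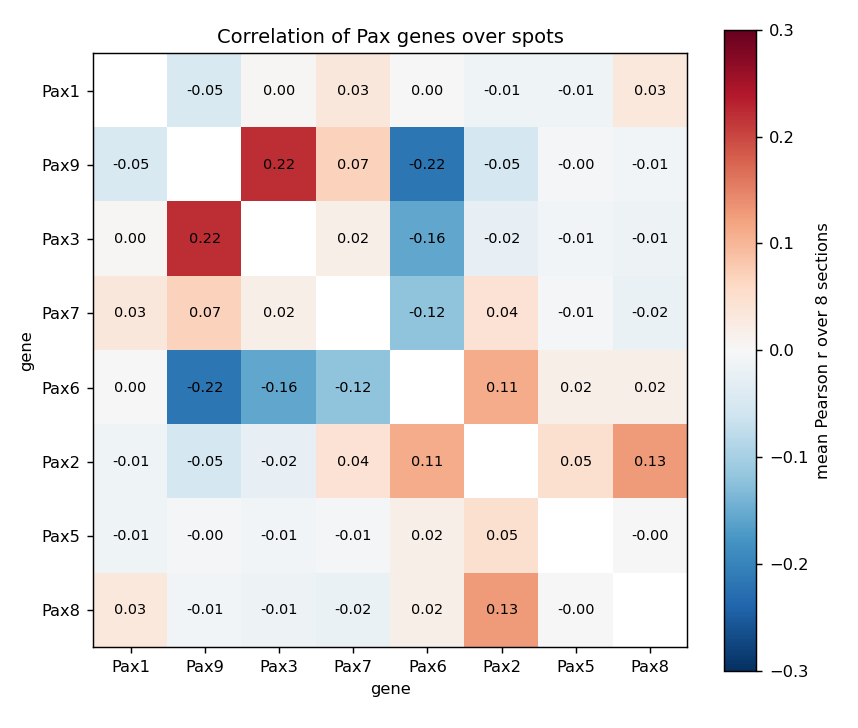
Each cell gives the mean over 8 sections of the Pearson correlation over spots between the Pax genes of its row and column, red above 0 and blue below. Pax9 with Pax3 was the highest pair at 0.22 and Pax9 with Pax6 the lowest at -0.22.

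Between the stages, no Pax gene passed the test on the summed UMIs of the areas. Of 15609 genes tested with edgeR, 0 were called (0%) at an adjusted p under 0.1, 930 had an unadjusted p under 0.05, and DESeq2 called 28, none of them a Pax gene. For Pax7 the areas were at 2.98 and 5.03 CPM at E14.5 and 10.6 and 10.5 at E15.5. The fitted log2 fold change was 1.29 (SE 0.376, unadjusted p = 0.00929, adjusted p = 0.769, edgeR).

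Sections pointed the same way for Pax7, which was at 4.84 ± 1.56 CPM (SD, n = 4 sections) at E14.5 and 10.4 ± 1.08 at E15.5. Sections of an area share a library, so this adds no independent sample. Muscle-gene spots were 73 of 1106, 138 of 2310, 93 of 989 and 212 of 1952 spots, so their share was higher at E15.5 in both areas. How far this share moved the Pax7 level was not tested. Within muscle-gene spots the log2 fold change of Pax7 was 0.69 (SE 0.303, unadjusted p = 0.0456, edgeR), with 0% of 13240 genes called.

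Pax8 was at 0.324 and 3.44 CPM at E14.5 and 0.238 and 0.191 at E15.5. In E14.5 replicate 1 the value rested on 5 UMIs and was little above those at E15.5. The log2 fold change was -3.33 (SE 0.928, unadjusted p = 0.00756, adjusted p = 0.769, edgeR), and -0.62 without E14.5 replicates 2 to 4, so that its size rested on that area. The highest E14.5 section was B, at 7.45 CPM, while the other E14.5 sections were at 0.324, 0.217 and 0.871.

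The other Pax genes had smaller fitted changes. Pax6 was at 140.1 and 93.7 CPM at E14.5 and 117 and 48.5 at E15.5 (log2 fold change -0.55, SE 0.403), and Pax3 at 7.58 and 14.9 against 10.4 and 23.1 (0.48, SE 0.474). Pax1 was at 9.13 and 12.5 against 11.8 and 17.6 (0.37, SE 0.340), and Pax9 at 46.1 and 101 against 74.1 and 94.8 (0.12, SE 0.378). Pax2 was at 1.295 and 9.19 against 4.02 and 3.11 (-0.70, SE 0.739), and Pax5 had a log2 fold change of -0.37 (SE 0.674). The share of retina-gene spots differed between areas, at 58 of 1106, 132 of 2310, 70 of 989 and 30 of 1952 spots, and the part of this in the values was not tested.

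The same test within the region of highest median level, among those with at least 10 spots in every area, left no Pax gene past the threshold. The log2 fold change of E15.5 against E14.5 was 0.67 (SE 0.567) for Pax1 in frontonasal-gene spots, -0.27 (SE 0.301) for Pax9 in tooth-gene spots (0.0083% of genes called) and 0.25 (SE 0.352) for Pax3 in airway-gene spots. It was -0.09 (SE 0.288) for Pax6 in retina-gene spots and -1.14 (SE 1.10) for Pax2 in pigment-gene spots. The Pax1, Pax9 and Pax6 values each changed sign with some replicate left out, as given in the last section. The Pax2 value was not stable. It was -2.32 and called with the replicate number as a block. Leaving out E15.5 replicate 1 gave a call of lower Pax2, and leaving out E14.5 replicates 2 to 4 turned the sign with no call, but the stage then had 1 area, with 1 and 3 Pax2 UMIs in these spots, assumed to vary like the areas of the other stage, so neither fold is given weight. In these regions other than tooth-gene spots, 0% of genes were called. Pax5 and Pax8 fell under the filter of this test.

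Genes that work with the Pax proteins were tested for the stage over whole areas as well, in lists chosen with earlier results of these data known, and no gene was called. Of 10 eye and forebrain genes around Pax6, 3 had a positive log2 fold change (median -0.12). Of 7 tested around Pax1 and Pax9, 6 were positive (0.18), of 6 around Pax3 and Pax7, 6 (0.47), of 7 around Pax2, Pax5 and Pax8, 4 (0.16), and of 4 cofactors, 0 (-0.37). Over all genes 7772 of 15609 were positive, with a median near 0 (-0.00165). In these lists the genes with an unadjusted edgeR p under 0.05 were Lhx1, a kidney and midbrain gene (log2 fold change -1.69), and Sox2, a neural progenitor gene (-0.64). Over all genes tested, 930 of 15609 were under it, so these 2 are no result about the lists.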

How the data were processed

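Visium data of 4 capture areas were analysed. The values are unnormalized UMI counts that the authors deposited with the position of every spot. Per the file headers, Space Ranger 1.3.1 made the tables of both replicate 1 areas and version 2.0.0 made those of both other areas, and the submitters' processing notes name mm10. The probe set and annotation are not given in the sources used here. The members and lists were chosen with earlier results of these data known.

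Spots over tissue were kept (6357), which left out 19 barcodes, with no filter on depth and no doublet caller. Connected groups of at least 100 spots were sections, and 88 spots lay in none. Areas shared 540 to 1388 barcodes per pair, since arrays reuse them. UMIs were summed per area, or per area and region of at least 10 spots. Tests used edgeR 4.0.16 (R 4.3.3; quasi-likelihood, TMM, filterByExpr), and p-values were adjusted by Benjamini-Hochberg over all genes tested, as checked on simulated counts. The stage test compared 2 areas with 2, and regional tests had the area as a covariate. Results were recomputed with DESeq2 1.42.0, with plain library sizes, without the filter, at another threshold, with glmTreat at a log2 fold change of 1, with a marker score of 2, with regions scored by shares of UMIs, with thinning, sections as samples, the replicate number as a block, and each replicate left out. Other steps used Python 3.11.15, numpy 2.4.6, scipy 1.17.1, pandas 2.3.3, scikit-learn 1.9.0 and matplotlib 3.10.9.

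The text names all 8 Pax genes, for each the 3 other genes with the highest mean correlation over spots among those with a UMI in at least 5% of spots, and genes of the listed networks, except that some genes under this rule, and a list that needs one of them, are not reported here. The epithelial genes and the patches, with their leading genes, were chosen after values were seen. Gene positions came from GENCODE for GRCm38 and promoter windows from RefSeq. Intervals are exact 95% Poisson intervals and cover counting error only.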

Additional observations from a re-analysis of the deposited data

Results flagged for a closer look

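Levels of the Pax genes over whole sections were compared within each stage for samples that stood apart, in 16 groups of 4 sections, of which 2 had such a section (chance alone gives about 1 in 20). Pax3 was at 63.5 CPM in E14.5 section A, far above the other E14.5 sections, in a section with a median of 10037.5 UMIs per spot. Pax8 was at 7.45 CPM in E14.5 section B, where a patch of 13 choroid-gene spots held 72.4% of its UMIs.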

How the results depend on the processing

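Under the other settings, 398 values for single Pax genes, counted for regions only over pairs already called, kept their direction and their side of the threshold, 27 lost a call, 2 gained one and 13 changed sign. For the stage over whole areas, DESeq2 called 28 genes in place of 0, and leaving out a replicate gave 0 to 78, the most without E15.5 replicate 1, with no Pax gene among them. Counting each Pax gene only in its region of highest level, calls for the stage went from 0 to 1 with the replicate block and to between 0 and 1 with a replicate left out, both for Pax2 in pigment-gene spots, at a log2 fold change of -2.32 with the replicate block and from -8.22 (without E15.5 replicate 1) to 2.04 (without E14.5 replicates 2 to 4), which rest on 1 and 3 UMIs in the lone area of a stage, assumed to vary like the other areas. Counting all Pax genes in those regions, 1 was also called in frontonasal-gene and in ventral-forebrain-gene spots without E15.5 replicates 2 to 4, and in tooth-gene spots without E14.5 replicate 1, without E15.5 replicate 1 and with no filter on low counts. Same-numbered areas had deviations correlated at 0.25 over genes, in only 2 pairs, whose areas also share the Space Ranger version and the number of sections, so these cannot be told apart. The block changed no other call among the Pax gene values recomputed with it. The 31 regional calls became 20 when tested against a log2 fold change of 1 and 30 to 41 with a replicate left out, the most without E15.5 replicates 2 to 4, where Pax genes called in frontonasal-gene spots went from 2 to 5 and in choroid-gene spots from 1 to 3. Calls were gained in retina-gene spots, from 3 to 4, under several settings.

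Signs changed in the following. With sections as samples, Pax9 was at -0.15 and Pax3 at -0.16. With a replicate left out, log2 fold changes over whole areas ran from -0.36 to 0.85 for Pax9 (-0.05 without E15.5 replicates 2 to 4), from -0.17 to 1.12 for Pax3, from -1.47 to 1.44 for Pax2 and from -1.37 to 0.18 for Pax5. Within regions stage differences ran from -0.26 to 1.53 for Pax1, from -0.62 to 0.25 for Pax9 and from -0.33 to 0.20 for Pax6 (0.06 without E15.5 replicates 2 to 4). Pax8 in choroid-gene spots against the other regions, which had been called higher, ran from -2.10 without E14.5 replicates 2 to 4 to 6.16 without E15.5 replicates 2 to 4. The causes were not tested. Pax5 had 59 UMIs in all, and the Pax8 calls outside choroid-gene spots rested on at most 19 UMIs in any area.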
